A study of Rattus norvegicus with 6 samples.

Results

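The 40 genes described here form the interferon and antiviral response module: double-stranded RNA sensors, the transcription factors of the interferon pathway, the effector proteins that the pathway induces, and genes that prepare antigen for class I molecules. They were taken from a fixed list of symbols and matched to array probes through the RefSeq accession of each probe. Of the 40 genes, 36 had a probe, among 15168 named genes with a probe on the array. The 4 without one here were the sensors Ddx58 and Zbp1 and the effectors Herc6 and Xaf1. Of the 36, 23 were bright enough to be tested, among 18464 tested features (named genes and unnamed transcripts, 1 probe each).

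The cells were cultured rat dermal fibroblasts in 2 groups of 3 samples, 1 one-colour Agilent array per sample. The control group carried a control lentivirus, and the knockdown group carried a lentivirus with a short hairpin RNA that targets lnc-URIDS, a long non-coding RNA. Both groups received virus at a multiplicity of infection of 10, with puromycin, which kills cells lacking the viral cassette, at 2 µg/mL. The sample titles give a time of 48 h for both groups. No array of cells without virus was analysed here, so the baseline below is a level in the presence of virus, hairpin or control cassette, and puromycin. The labels name no strain, sex or age, and leave unsaid whether a group came from several cultures; the p-values then reflect only variation among these samples, possibly technical.

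Interferon genes are read out from a short chain of events. RNA sensors in the cytoplasm (RIG-I, encoded by Ddx58, and MDA5, encoded by Ifih1) recognise viral RNA and trigger the secretion of interferon beta, which binds its receptor on the same and neighbouring cells and activates a complex that contains STAT2 and IRF9. That complex binds the interferon-stimulated response element (ISRE) in promoters, while the signal of interferon gamma acts through the GAS element. Fibroblasts are a classical source of interferon beta and keep a low tonic expression of many of these genes without infection.

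Promoter windows from RefSeq (build GRCr8, 250 bases before to 50 after the gene's start, 5′ to 3′ on the gene's strand) were at hand for 30 of the 40 genes; Ddx58, Dhx58, Zbp1, Usp18, Isg15, Ifit1, Ifit2, Oas2, Adar and Mx2 had none. The ISRE core (GAAA, any 2 bases, GAAA), searched on both strands, was present in 19 of the 30 windows, against 3.92% of all 33469 windows of that length. The palindromic GAS core TTCNNNGAA was present in 10 of 30, against 8.87% of all windows. The share with an ISRE core was 64.7% of 17 windows of tested genes and 63.6% of 11 windows of genes too dim to test. A match describes letters in the window and is not evidence of binding. The 6 windows that follow were chosen after the values were seen and are shown because the results turn on these genes. Irf1 and Irf7 are the factors with the largest differences between the groups, and Tap1 shares its upstream region with Psmb9. Among the tested genes, Oasl2 differed most between control arrays apart from Usp18. Oas1a and Oas1b are neighbouring copies, of which 1 was bright and 1 was not well above background. Capitals mark ISRE and GAS core matches, which overlap in the Oas1a and Oas1b windows where ISRE cores share bases.
Irf1, chr10:38417685-38417984, plus strand: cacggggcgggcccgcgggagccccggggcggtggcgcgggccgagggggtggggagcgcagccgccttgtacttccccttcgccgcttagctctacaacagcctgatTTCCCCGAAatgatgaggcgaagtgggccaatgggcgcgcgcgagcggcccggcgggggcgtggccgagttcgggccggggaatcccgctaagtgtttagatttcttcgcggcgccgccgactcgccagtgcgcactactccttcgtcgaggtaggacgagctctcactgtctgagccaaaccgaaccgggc
Irf7, chr1:205799974-205800273, minus strand: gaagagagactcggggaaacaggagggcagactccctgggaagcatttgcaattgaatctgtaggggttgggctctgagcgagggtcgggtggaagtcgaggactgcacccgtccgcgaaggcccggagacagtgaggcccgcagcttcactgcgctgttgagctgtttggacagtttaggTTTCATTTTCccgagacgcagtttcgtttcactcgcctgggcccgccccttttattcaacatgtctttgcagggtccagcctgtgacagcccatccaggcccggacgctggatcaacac
Tap1, chr20:4668494-4668793, minus strand: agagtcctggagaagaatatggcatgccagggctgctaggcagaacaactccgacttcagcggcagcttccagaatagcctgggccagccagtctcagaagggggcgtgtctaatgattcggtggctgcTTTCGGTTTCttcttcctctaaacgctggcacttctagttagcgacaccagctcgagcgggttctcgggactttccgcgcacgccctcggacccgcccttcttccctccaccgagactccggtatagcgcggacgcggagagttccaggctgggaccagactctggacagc
Oasl2, chr12:47383136-47383435, minus strand: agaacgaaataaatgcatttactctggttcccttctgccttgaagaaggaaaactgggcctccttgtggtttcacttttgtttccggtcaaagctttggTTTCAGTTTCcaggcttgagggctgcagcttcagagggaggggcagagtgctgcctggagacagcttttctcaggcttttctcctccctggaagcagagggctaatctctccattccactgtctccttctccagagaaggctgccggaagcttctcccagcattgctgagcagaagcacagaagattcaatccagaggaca
Oas1a, chr12:41330216-41330515, plus strand: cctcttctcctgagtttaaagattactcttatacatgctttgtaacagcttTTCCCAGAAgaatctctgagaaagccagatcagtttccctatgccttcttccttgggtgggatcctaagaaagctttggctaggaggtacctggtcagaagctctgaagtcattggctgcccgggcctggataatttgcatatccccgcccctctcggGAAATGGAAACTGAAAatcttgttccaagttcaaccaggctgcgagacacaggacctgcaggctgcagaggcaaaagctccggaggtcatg
Oas1b, chr12:41395803-41396102, minus strand: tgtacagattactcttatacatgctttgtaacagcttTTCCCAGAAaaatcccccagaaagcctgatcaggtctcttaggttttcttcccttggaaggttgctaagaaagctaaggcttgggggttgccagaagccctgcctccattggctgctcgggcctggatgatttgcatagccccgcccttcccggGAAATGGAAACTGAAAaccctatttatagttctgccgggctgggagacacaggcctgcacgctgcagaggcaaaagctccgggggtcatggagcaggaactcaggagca

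The Irf1 window holds a GAS core 142 bases before the start and no ISRE core. The Irf7 window holds an ISRE core 69 bases before the start, Tap1 one at 121 bases and Oasl2 one at 151 bases. Psmb9 and Tap1 are transcribed away from each other with 456 bases between their starts; the Psmb9 window itself has neither core. The Oas1a and Oas1b windows were identical at 235 of 281 aligned bases (83.6%), with 38 more bases opposite gaps. Each held 2 overlapping ISRE cores and a GAS core.

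The arrays were of similar brightness, with the 75th percentile of processed signal between 1494 and 1612 scanner units and 20901 to 22492 of 30367 probes well above background, a flag the scanner software sets for a spot clearly brighter than its surroundings. The dimmest probe with that flag had 10.8 to 13.8 units on an array. No spot was saturated, and the number of arrays limits the precision. Of the 14 fibroblast markers, 12 were bright on all 6 arrays, among them Col1a1, Col1a2, Col3a1 and Vim, but the probes for the proteoglycans Dcn and Lum were not well above background on any. The pan-leukocyte gene Ptprc, the T cell gene Cd3e, the macrophage genes Cd163 and Itgam and the epithelial genes Cdh1 and Epcam were also not well above background on any array. Other markers of those cell types were: on all 6 arrays, the T cell gene Cd3d read 857 to 1056 units, the monocyte gene Cd14 793 to 1077, the macrophage receptor gene Csf1r 234 to 422, the endothelial gene Cdh5 240.2 to 290.0, and the keratinocyte genes Krt14 and Krt5 88.4 to 154 and 29.6 to 47.2. In all, 5 of 11 T cell and NK cell, 7 of 11 macrophage and monocyte, 2 of 5 endothelial, 2 of 5 keratinocyte and 0 of 2 B cell markers with a probe were well above background on all arrays. No probe carried the name of lnc-URIDS, so the knockdown was not checked. Arrays that share a scan identifier in their file headers are called a slide here, since the sample labels name no slide. By that rule slide 1 held control 1, control 2, knockdown 2 and knockdown 3, and slide 2 held control 3 and knockdown 1.

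The first comparison was of each gene against background in the control cells. At baseline, 23 of the 36 genes were well above background on all 3 control arrays, and the same 23 on all 3 knockdown arrays. The share over all 6 arrays was 63.9% of these genes, against 69.0% of all named genes. By role, the count in controls was 2 of 2 sensors with a probe, 4 of 4 transcription factors, 2 of 3 antigen processing genes and 15 of 27 effectors. Since every tested gene was above background on all 6 arrays, none entered the test through 1 group alone.

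The 3 highest signals of the module came from effector probes. Oas1b, of the family that makes the activator of RNase L, gave 14327 to 14487 units on control arrays and 14506 to 15026 on knockdown arrays. Ifi27, a mitochondrial protein gene strongly induced by type I interferon, gave 12301 to 14367 units on control arrays and 11665 to 12301 on knockdown arrays. Mx2, a dynamin-like GTPase, gave 7564 to 8842 units on control arrays and 8288 to 8399 on knockdown arrays. Probes differ in how well they capture their transcript, so these signals are set against background and not against each other.

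In the same cells, 10 genes of the module were not well above background on any of the 6 arrays. They were Ifit1 and Ifit3 (binders of viral RNA), Rsad2 (viperin, which blocks viral RNA synthesis), Cmpk2 (its neighbouring nucleotide kinase gene), Oas1a, Oasl, Gbp2 (a GTPase induced by interferon gamma), Ifi44l, the chemokine gene Cxcl11 and the immunoproteasome gene Psmb8. Rsad2 signals were 2.67 to 3.58 units, Ifit1 2.26 to 4.61 units and Cmpk2 3.05 to 4.31 units. For these genes no fold is given, since neither group was well above background on any array. On the probe of Oasl, control 1 read 12.97 units and the other 5 arrays 2.28 to 2.94. The probes of the neighbouring, similar genes Oas1a and Oas1b may each read some of the other's transcript, as may those of Mx1 and Mx2. The Oas1a probe read 3.96 to 9.58 units while that of Oas1b was bright.

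**Figure D1:**
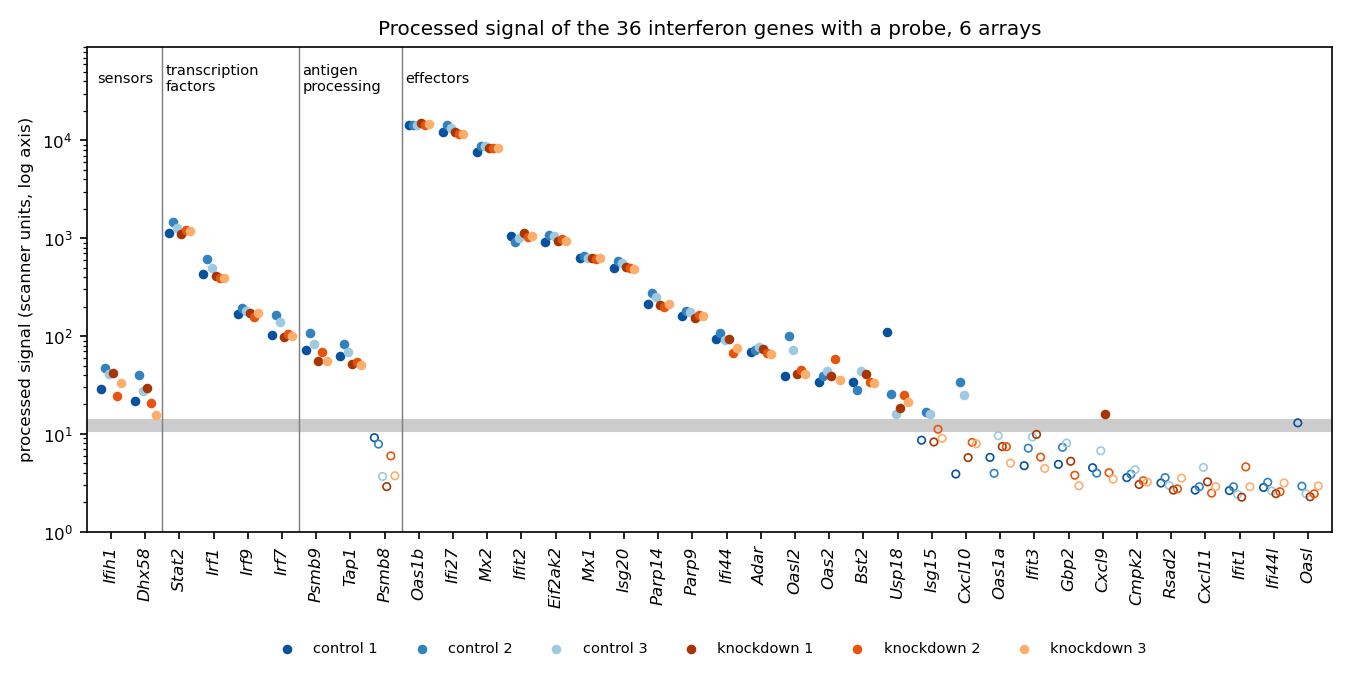
Processed signal in scanner units (log axis) of each of the 36 genes with a probe, on the 6 arrays, ordered by role and by signal; blue points are control and orange points knockdown arrays, filled where the probe was well above background and open where not. The grey band spans the dimmest signal with that flag on each array, 10.8 to 13.8 units; 23 genes lie above it on all arrays and 10 have only open points.

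For the remaining 3 genes the flag differed between arrays. Isg15, the ubiquitin-like modifier that is attached to proteins after interferon, read 8.62, 16.7 and 16.0 units in controls 1, 2 and 3, against 8.28, 11.2 and 9.02 in knockdown 1, 2 and 3. Cxcl10, a chemokine that draws T cells, read 3.89, 34.3 and 24.9 units in controls, against 5.73, 8.18 and 7.93 in knockdown. Both were well above background on controls 2 and 3 only, so control 1 lay with the knockdown arrays. No knockdown array was well above background for either, so the difference is given as a bound. It was taken from the control mean against the higher of the knockdown signal and the dimmest flagged signal. By that bound Cxcl10 was 1.22-fold higher and Isg15 1.08-fold higher in control means, untested. Control 1 was itself not well above background for either gene and entered the control mean as measured. The folds are therefore not strict lower limits. These bounds rest on single control arrays: without control 1 they were 2.33-fold and 1.30-fold, and without control 2 or without control 3 neither gene had a bound above 1 (settings chosen after seeing the data). Cxcl9, a related chemokine, was well above background only in knockdown 1, at 15.9 units against 3.45 to 6.73 on the other arrays. The T cell marker Cd2 read 7.45, 16.4 and 16.2 units in controls, against 6.87, 4.70 and 8.52 in knockdown. Cd2 was well above background on the same 2 control arrays. Another T cell marker, Lck, went the other way, at 11.8, 8.14 and 14.9 units in controls, against 13.6, 11.5 and 22.8 in knockdown. It was well above background on 1 control and 2 knockdown arrays. Of the 6 tested T cell and NK cell markers, 4 had higher and 2 had lower knockdown means. The summed signal of the 11 T cell and NK cell markers, each relative to the 75th percentile, was 0.679 to 0.837 in controls, against 0.740 to 0.839 in knockdown. The Cd3d probe, the brightest of them, weighs most in that sum. Cd3e, Cd8a and Klrb1 were well above background nowhere, and the part of such cells in these values was not tested. In a culture measured in bulk, fewer cells of a type and less RNA per cell cannot be told apart.

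The second comparison was of knockdown with control cells over the 23 tested genes. None reached a limma adjusted p under 0.05, and neither did any of the 18464 features (0% called in either direction). The smallest adjusted p among the 23 was 0.197. Their means were lower in knockdown for 17 and higher for 6, against 9744 lower and 8720 higher over all features. The median log2 fold change, knockdown minus control, was -0.10 for these genes and -0.01 for all features. At an unadjusted p under 0.05, 4 of 23 were lower (Tap1, Psmb9, Irf1 and Parp14), against 8.24% of all features, and 0 of 23 were higher, against 5.9% of all features. Single arrays moved this count. Without control 1, 8 were lower against 9.89% of features, and 2 were higher against 7.7%. Without control 3, 2 were lower against 5.09% of features, and without knockdown 2, 2 were lower against 5.35%. Without knockdown 3, 1 was lower against 4.73% of features. With slide as a block, 2 were lower (Psmb9 and Tap1) against 8.72% of features, and with array quality weights 9 were lower against 16.9%. With the arrays centred on their medians, 2 of 23 were lower at that p against 6.02% of features, and the share of lower means among the features at that p turned from 58.3% to 42.8%. With quantile normalization, 2 were lower against 6.92% of features, and that share was 47.1%. With a normexp background (median spot intensities, offset of 50 units), 0 were lower and 0 higher at that p, against 3.4% and 3.59% of features. In that setting 9 of 23 had lower means, and the median was 0.03, against 0.05 over all features.

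**Figure D2:**
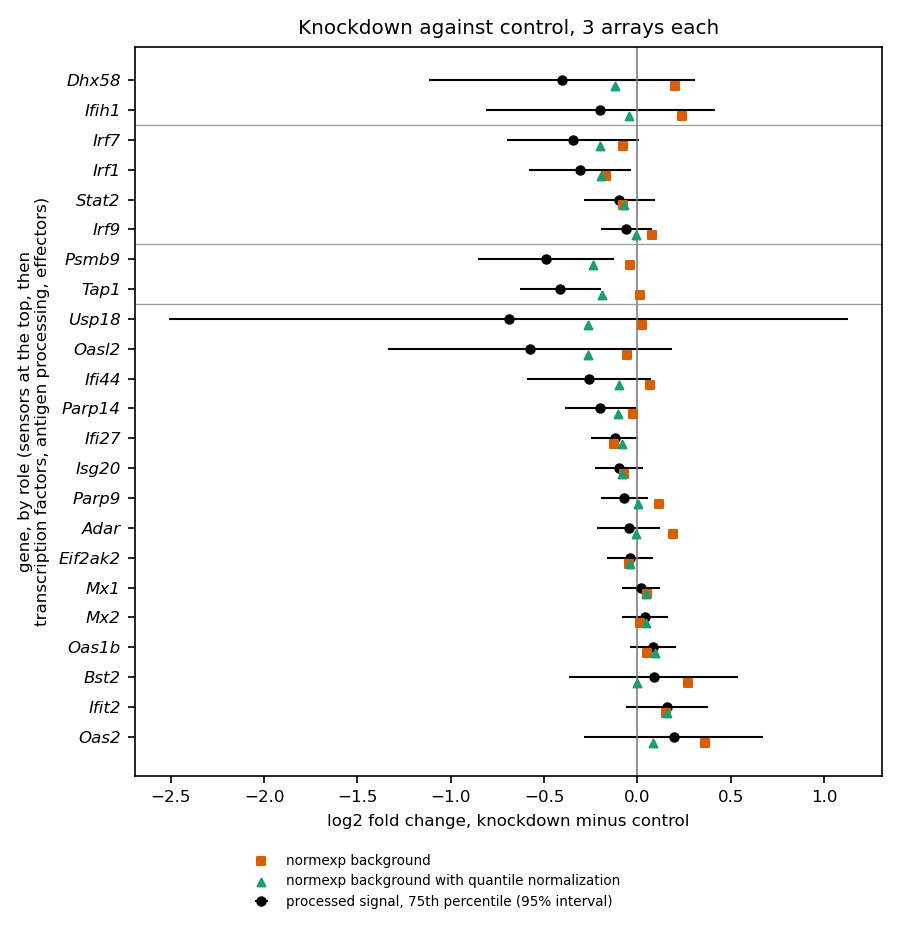
Log2 fold change, knockdown minus control, of the 23 tested genes by role; black points are limma estimates on the processed signal with 95% intervals (3 arrays per group), orange squares the values with a normexp background and green triangles those with normexp and quantile normalization. The black points of 17 genes lie left of 0, while the orange squares of 9 genes do.

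Both tested sensors varied between arrays by more than the group means differed. Values from here are on the log2 scale, each signal over the 75th percentile of its array, listed for controls 1, 2 and 3 and then knockdown 1, 2 and 3. Ifih1, which senses long double-stranded RNA, read -5.71, -5.08 and -5.28 in controls, against -5.18, -5.97 and -5.52 in knockdown. Dhx58, encoding LGP2, which tunes the other RNA sensors, read -6.10, -5.33 and -5.86 in controls, against -5.70, -6.21 and -6.59 in knockdown. For both, control 2 was the highest of the 6 arrays and the groups overlapped. The differences were -0.20 (SE 0.25, 95% interval -0.81 to 0.41) for Ifih1 and -0.40 (SE 0.29, 95% interval -1.12 to 0.31) for Dhx58, with limma adjusted p of 0.811 and 0.607. Within slide 2 both signs turned (0.10 and 0.16), and with a normexp background too (0.24 and 0.20).

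All 4 transcription factor genes had lower knockdown means, though the sign of Irf9 turned with a normexp background. Irf1, the factor that drives interferon gamma targets and antigen processing, read -1.80, -1.38 and -1.66 in controls, against -1.87, -1.95 and -1.94 in knockdown. The Irf1 groups did not overlap, as for 11.9% of all features in that direction, and the difference was -0.31 (SE 0.11; limma adjusted p = 0.316, from 0.0768 to 0.689 over the alternatives), or -0.19 without control 2. A second, dimmer Irf1 probe had -0.10 (SE 0.07). Irf7, which amplifies type I interferon production and is itself induced by it, read -3.87, -3.31 and -3.51 in controls, against -3.94, -3.86 and -3.92 in knockdown. Control 1 of Irf7 lay among the knockdown arrays, which spanned only 0.09, and controls 2 and 3 lay above all of them; the difference was -0.35 (SE 0.14; limma adjusted p = 0.364), from -0.50 without control 1 to -0.22 without control 2, and -0.08 with a normexp background. Stat2 read -0.39, -0.14 and -0.30 in controls, against -0.44, -0.33 and -0.34 in knockdown, with a difference of -0.10 (SE 0.08; limma adjusted p = 0.650). Irf9, the DNA-binding partner of STAT2, read -3.15, -3.07 and -3.13 against -3.13, -3.26 and -3.14, a difference of -0.06 (SE 0.05), or 0.08 with a normexp background.

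The antigen processing genes Tap1 and Psmb9, whose starts lie back to back as described above, had the smallest p-values of the 23. Tap1, a subunit of the transporter that carries peptides to class I molecules, read -4.57, -4.27 and -4.52 in controls, against -4.87, -4.82 and -4.90 in knockdown. Its control mean was -4.45 ± 0.16 (SD, n = 3) and its knockdown mean -4.86 ± 0.04 (SD, n = 3), a signal 1.33-fold as high in controls (limma adjusted p = 0.197). Psmb9, a catalytic subunit of the immunoproteasome, read -4.37, -3.91 and -4.26 in controls, against -4.78, -4.46 and -4.77 in knockdown. Its difference was -0.49 (SE 0.15; limma adjusted p = 0.248), 1.40-fold as high in controls. For both genes every control array lay above every knockdown array. The difference was of like size within slide 1 (-0.44 for Tap1, -0.48 for Psmb9) and within slide 2 (-0.36 and -0.51, 1 array per group, untested), and with slide as a block the limma adjusted p was 0.223 and 0.267. With a normexp background it was 0.02 for Tap1 and -0.04 for Psmb9, and with quantile scaling added -0.19 and -0.24; over the alternatives the adjusted p of Tap1 ran from 0.0467 to 0.977, and it passed the threshold only with array quality weights (difference -0.40).

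Of the 15 tested effectors, 9 had lower knockdown means and 6 had higher ones (median difference -0.05). Oasl2, a relative of the oligoadenylate synthetases, read -5.27, -4.02 and -4.47 in controls, against -5.21, -5.07 and -5.21 in knockdown. Controls 2 and 3 stood above the other 4 arrays, and control 1 was the lowest of all 6. The Oasl2 difference was -0.57 (SE 0.31; limma adjusted p = 0.468), -0.91 without control 1, -0.29 without control 2 and -0.05 with a normexp background. Oas2 read -5.46, -5.35 and -5.16 in controls, against -5.28, -4.71 and -5.40 in knockdown, so that knockdown 2 alone stood apart (difference 0.19, SE 0.19), and the sign turned without it. Isg20, an exonuclease for single-stranded RNA, read -1.58, -1.45 and -1.51 in controls, against -1.57, -1.62 and -1.65 in knockdown (difference -0.10, SE 0.05). Oas1b, Eif2ak2 (the kinase PKR, which halts translation when it binds double-stranded RNA) and Adar (which edits double-stranded RNA) had differences of 0.08, -0.04 and -0.05, each with an SE of 0.07 or less. The brightest Eif2ak2 probe was printed at several spots, of which 8 to 10 per array were free of outlier flags, and their SD within an array was 0.03 to 0.04, which covers spot noise alone. A second Eif2ak2 probe had -0.17 (SE 0.04), with every control above every knockdown array.

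Usp18 shows how 1 array can set a mean. It encodes the protease that removes ISG15 and dampens the interferon receptor, and its brightest probe read -3.76, -5.99 and -6.64 in controls, against -6.37, -5.91 and -6.17 in knockdown. Control 1 stood above the other 5 arrays, and the difference of -0.69 (SE 0.74; limma adjusted p = 0.766) became 0.16 without it. The second Usp18 probe had -0.01 (SE 0.14), with control 1 at -6.07.

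Among the antiviral GTPases and membrane effectors, all 3 tested genes had higher knockdown means by 0.09 or less. Mx1 read -1.26, -1.30 and -1.35 in controls, against -1.27, -1.29 and -1.28 in knockdown, with a difference of 0.02 (SE 0.04, 95% interval -0.08 to 0.12). Mx2 had 0.04 (SE 0.05, 95% interval -0.08 to 0.16), from control values of 2.34, 2.46 and 2.46 and knockdown values of 2.45, 2.45 and 2.48. Bst2, or tetherin, which holds budding virus at the cell surface, read -5.45, -5.83 and -5.16 in controls, against -5.20, -5.47 and -5.51 in knockdown; its difference of 0.09 (SE 0.18) turned sign in 5 settings, among them normexp with quantile scaling and slide 2 alone. Ifit2, the bright member of the IFIT family, ran the other way from Irf7 and Oasl2. It read -0.50, -0.82 and -0.65 in controls, against -0.43, -0.55 and -0.51 in knockdown, with control 2 the lowest array (difference 0.16, SE 0.09; limma adjusted p = 0.487).

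The ADP-ribosyltransferase genes Parp9 and Parp14, whose proteins modulate interferon signalling, both had lower knockdown means, though Parp9 turned sign with a normexp background. Parp14 read -2.81, -2.55 and -2.65 in controls, against -2.85, -2.93 and -2.83 in knockdown, without overlap. The difference was -0.20 (SE 0.08, limma adjusted p = 0.338). A second, dimmer Parp14 probe had -0.34 (SE 0.17), and its groups overlapped, with control 1 at -6.32 and knockdown 3 at -6.27. Parp9 read -3.24, -3.14 and -3.16 in controls, against -3.31, -3.20 and -3.24 in knockdown (difference -0.07, SE 0.05). Ifi27 read 3.04, 3.16 and 3.09 in controls, against 3.02, 2.94 and 2.95 in knockdown, without overlap but with a difference of only -0.12 (SE 0.05; limma adjusted p = 0.364). Ifi44, a cytoplasmic protein gene induced by virus, read -4.01, -3.91 and -4.13 in controls, against -4.02, -4.51 and -4.31 in knockdown (difference -0.26, SE 0.13), and its sign turned within slide 2. The 5 genes whose groups did not overlap (Tap1, Psmb9, Irf1, Parp14 and Ifi27) were all lower in knockdown, where 11.9% of all features lay without overlap; 0 of 23 lay above, against 9.94% of features.

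A recurring order of the arrays ran through the genes of the module. Control 2 was the highest of the 6 arrays for 15 of 23 genes, against 19.8% of all features. Among the 3 controls, control 1 was the lowest for 16 of 23 genes, against 30.5% of all features, and against the knockdown arrays it lay within their range for 11 (44.5% of features), below it for 4 (23.2%) and above it for 8 (32.4%). Relative to each gene's mean over the arrays, the median of the 23 genes was -0.02, 0.12 and 0.06 in controls 1, 2 and 3, against -0.01, -0.07 and -0.08 in knockdown 1, 2 and 3, while that of all features stayed within -0.03 and 0.02. Control 2 was also highest for 15 genes with quantile normalization (against 23.8% of features) and with median centring (against 23.9%). It was highest for 13 with normexp and quantile scaling (against 23.3%), but for 4 with normexp alone (against 13.8% of features). The range over the controls exceeded that over the knockdown arrays for 16 of 23 genes, against 57.0% of features. These counts describe single libraries and are given without a test.

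**Figure D3:**
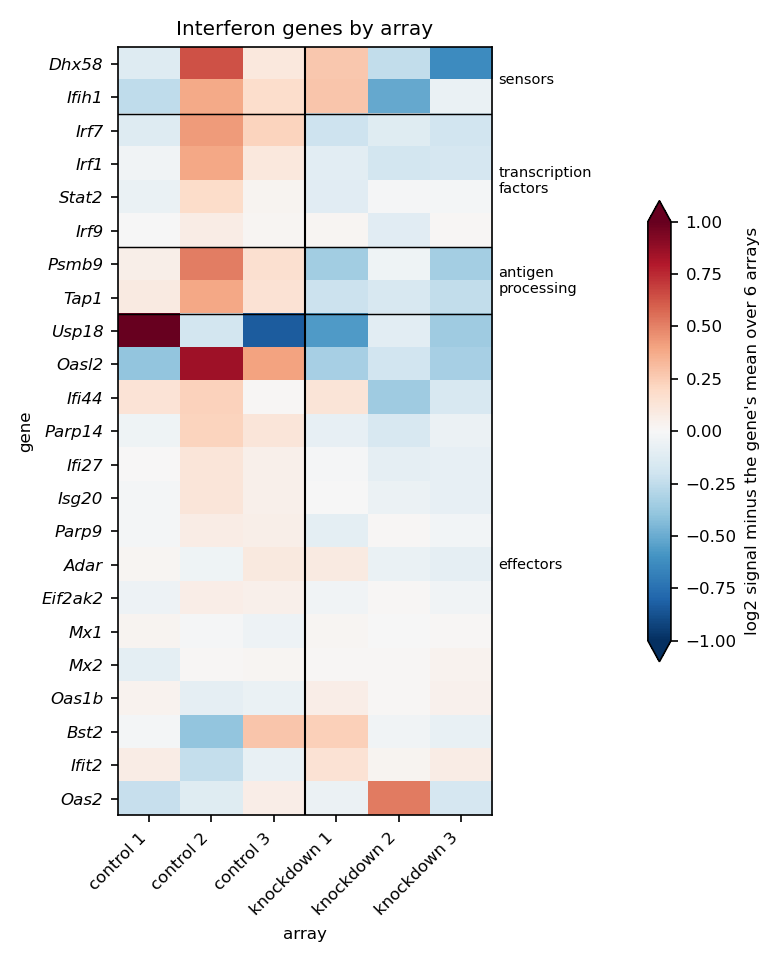
Log2 signal of the 23 tested genes on the 6 arrays, each minus the gene's mean (red above, blue below, colours end at 1 and -1), in rows by role with the lowest fold change first. The control 2 column is red for most genes, Usp18 is dark red in control 1, and Oasl2 is red in controls 2 and 3 only.

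Outside the interferon genes, control 2 was the highest array and control 1 the lowest control for 5 of the 12 tested fibroblast markers (Pdgfra, Pdgfrb, Prrx1, Thy1 and Twist1). The same order held for 4 of 10 housekeeping genes, against 14 of 23 genes of the module. In the pathway lists described below it held for 5 of 8 receptor and kinase genes, 6 of 15 class I presentation genes and 9 of 30 other interferon-stimulated genes. It held for 4 of 12 sensing genes and 3 of 14 negative regulators. Control 2 was the highest array for 7 of 12 fibroblast markers, 8 of 15 class I genes and 5 of 8 receptor and kinase genes. The share of all features with both was not counted. Control 1 was instead the highest array for the fibroblast markers Col1a1, Col3a1 and Vim. The mesenchymal transcription factor gene Prrx1 read 0.79, 1.69 and 1.26 in controls, against 0.60, 0.44 and 0.58 in knockdown, and the growth factor receptor gene Pdgfra read 1.13, 1.64 and 1.44 against 0.93, 0.86 and 0.89. For 5 of the 12 tested fibroblast markers every knockdown array lay below every control (Pdgfra, Prrx1, Twist1, Twist2 and Vim), against 11.9% of all features. At an unadjusted limma p under 0.05, 5 were lower and 1 higher, against 8.24% and 5.9% of features. The summed signal of the 14 fibroblast markers, relative to the 75th percentile, was 472 to 520 in controls, against 493 to 503 in knockdown. The bright probes of Col1a1, Col1a2 and Col3a1 weigh most in that sum. For the 11 macrophage and monocyte markers the sum was 0.998 to 1.17 in controls and 0.991 to 1.05 in knockdown. The part of these markers in the order of the interferon genes was not tested.

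The rest of the pathway was described by lists of genes outside the module. Of 12 interferon ligand genes, 5 had a probe. Ifnb1, which encodes interferon beta, read 11.6, 11.5 and 18.8 units in controls, against 66.9, 15.6 and 6.61 in knockdown. It was well above background on 1 control and 2 knockdown arrays and so was not tested. Knockdown 1 was the array with the highest Ifnb1 signal and also that with the Cxcl9 signal. Ifng read 3.21 to 3.73 units on the 6 arrays, well above background on none, and Ifna4 was the ligand gene that was tested (difference 0.10, SE 0.08).

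Of the 8 tested receptor and kinase genes, 0 passed, 6 had lower means and the median was -0.14. Ifnar1, a chain of the type I interferon receptor, read -3.25, -3.47 and -3.38 in controls, against -3.51, -3.60 and -3.63 in knockdown (difference -0.21, SE 0.07; limma adjusted p = 0.278). Its controls lay above the knockdown arrays, with control 1 the highest. The receptor-bound kinase gene Jak1 had -0.17 (SE 0.06; limma adjusted p = 0.323), with every control above every knockdown array.

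Of the 12 tested adaptors and kinases of nucleic acid sensing, 0 passed, 7 had lower and 5 higher means. The ubiquitin ligase genes Trim25 and Rnf135, both activators of RIG-I, had -0.25 (SE 0.07) and -0.21 (SE 0.06), with limma adjusted p of 0.225 and 0.237. Irf3, the factor that switches on the interferon beta gene, was higher in each knockdown array than in each control, at 2.16, 2.38 and 2.28 against 2.10, 1.87 and 1.97 (difference 0.29, SE 0.09; limma adjusted p = 0.238). Mavs, the mitochondrial adaptor of the RNA sensors, had 0.05 (SE 0.05). Of the 14 tested negative regulators, 10 had lower means, 0 passed and the median was -0.07; the 3 with the smallest p were the deubiquitinase genes Cyld (-0.18, SE 0.06) and Otud5 (-0.22, SE 0.10) and the DNA exonuclease gene Trex1 (-0.12, SE 0.05).

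Of the 30 tested interferon-stimulated genes outside the module, 22 had lower means and 8 had higher ones, with a median of -0.04, and 0 passed. In 3 of them every knockdown array lay below every control (Ifi35, Ifitm3 and Slfn2), and in 3 above (Epsti1, Gbp5 and Oas1f), against 11.9% and 9.94% of all features. Ifitm3, which blocks viral entry at endosomes, read -0.96, -0.25 and -0.46 in controls, against -1.12, -1.32 and -1.27 in knockdown. Every control lay above the knockdown arrays, control 1 nearest to them, and the difference was -0.68 (SE 0.18; limma adjusted p = 0.225). Slfn2, a regulator of T cell quiescence, showed the same order of controls, at -2.31, -1.74 and -2.05 against -2.48, -2.53 and -2.55 (difference -0.48, SE 0.14; limma adjusted p = 0.244). Trafd1, a feedback inhibitor of innate signalling, had -0.24 (SE 0.09). Control 2 was the highest array for 10 of the 30.

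**Figure D4:**
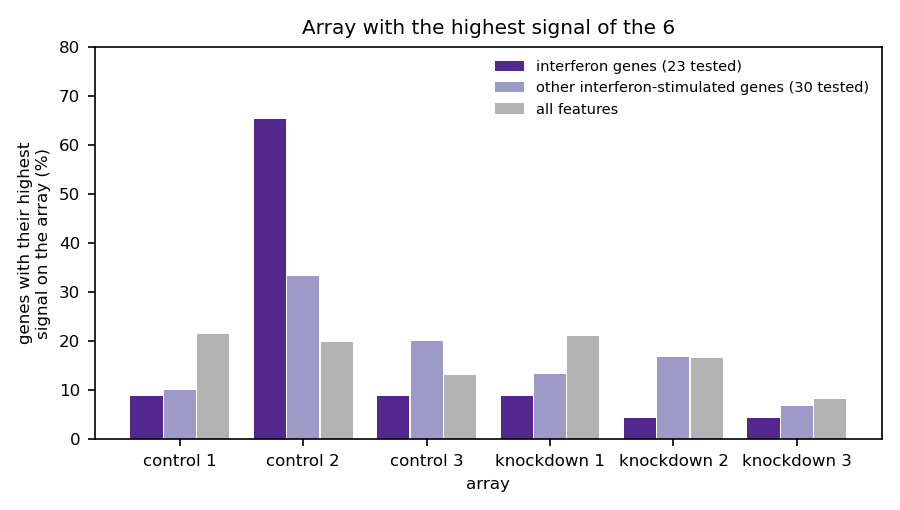
Percentage of genes whose highest signal of the 6 arrays fell on each array, for the 23 tested genes of the module, the 30 tested interferon-stimulated genes outside it and all features. Control 2 holds 65.2% of the module, 33.3% of the other interferon-stimulated genes and 19.8% of all features.

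Class I antigen presentation, the process that Tap1 and Psmb9 serve, was covered by 15 further tested genes. Of these, 13 had lower and 2 higher means in knockdown, the median was -0.11, and 0 passed. In 6 of the 15, every knockdown array lay below every control (11.9% of all features did). The class I heavy chain gene RT1-A2 read -0.06, -0.08 and -0.01 in controls, against -0.19, -0.29 and -0.32 in knockdown (difference -0.22, SE 0.05; limma adjusted p = 0.205). Class I heavy chain genes are close copies, so a probe of 1 may read another. Tapbp, which encodes tapasin and docks class I molecules at the transporter, had -0.13 (SE 0.04; limma adjusted p = 0.244), and the chaperone gene Calr had -0.32 (SE 0.08; limma adjusted p = 0.205). B2m, the light chain of class I molecules, had -0.07 (SE 0.08), with control 2 highest at 3.54.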

How the data were processed

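Total RNA of 6 samples was labelled with Cy3 and hybridised to one-colour Agilent arrays, per the labels' protocols. The authors deposited each array's scanner output, with the intensity of every spot on a linear scale; the processed intensity was background-subtracted and spatially detrended by the scanner's Feature Extraction software (Agilent; the file headers give 11.0.1.1, the submitters' processing notes 11.0.0.1). The deposited flags (0 or 1) mark outlier, saturated and well above background spots. Outlier spots (386 to 513 of 42877 gene spots per array) were left out, spots of a probe averaged on the log2 scale, and the array's 75th percentile subtracted. A probe was tested if well above background on all 3 arrays of a group. Accessions without version gave symbols to 18005 of 30367 probes through the GRCr8 RefSeq table, used for names because the array was designed on another build. The brightest probe stood for a gene.

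Groups were compared with limma 3.58.1 (R 4.3.3; lmFit, eBayes, Benjamini-Hochberg over 18464 features, threshold 0.05), and the step was checked on simulated data. Alternatives were quantile normalization, median centring, normexp (offset 50, on median intensities, with or without quantile normalization), other filters, the mean of a gene's probes, array weights, slide and replicate blocks, single slides, and leaving out each array. Every tested sensor, factor and antigen processing gene was named, with up to 3 effectors per subgroup by size of change, and in other lists the 3 genes with the smallest p plus Ifnb1, Ifnar1, Mavs and Irf3, and 1 result is not reported here; B2m, the other effectors, other ligands and the markers were chosen after values were seen. The members and lists were chosen with earlier results of these data known.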

Additional observations from a re-analysis of the deposited data

How the results depend on the processing

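No gene of the module passed the limma threshold under any alternative except array quality weights, which called 1 (Tap1, -0.40, adjusted p = 0.0467) and 767 features (303 higher, 464 lower); median centring called 1 feature, and the other alternatives 0. The members' median of -0.10 ran from -0.13 to -0.08 with each array left out in turn, was -0.12 within slide 1 and -0.05 within slide 2, and reversed to 0.0253 with a normexp background. That background also reversed Ifih1 (0.24), Dhx58 (0.20), Irf9 (0.0808), Tap1 (0.0160), Usp18 (0.0253), Adar (0.19), Parp9 (0.12) and Ifi44 (0.0700). With quantile normalization added, Bst2 (-0.00221) and Parp9 (0.00242) reversed, and with array quality weights Bst2 (-0.15). Mx1 reversed within slide 1 (-0.00505), and within slide 2 Ifih1 (0.10), Dhx58 (0.16), Usp18 (0.26), Oas2 (-0.12), Mx2 (-0.00825), Bst2 (-0.0424) and Ifi44 (0.11) did; the cause of these reversals was not tested. Leaving out 1 array in turn, values crossed 0 for Ifih1 (-0.39 to 0.00677), Usp18 (-1.28 to 0.16), Oas2 (-0.0158 to 0.33), Mx1 (-0.00068 to 0.0409) and Bst2 (-0.0865 to 0.25). The count of genes well above background in every control, 23, was 25 without control 1 and 30 by the flag for a spot positive and significant against its local background. With the replicate number as a block, 0 genes were called (smallest limma adjusted p 0.369). The deviations of same-numbered arrays correlated at 0.10, 0.26 and -0.29, so the numbers were not taken to pair the samples. Control 3 and knockdown 1, both of slide 2, correlated at 0.44. Within slide 1, control 2 correlated with knockdown 2 and 3 at 0.26 and 0.24, and control 1 at -0.09 and -0.03. Across slides, control 2 and knockdown 1 stood at -0.42, and control 3 and knockdown 2 at -0.24. The main comparison had no slide term. Signals near background limit Dhx58, Ifih1, Usp18, Bst2, Oas2 and Oasl2, the dimmest tested genes.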

Other observations

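Epsti1 was among the interferon-stimulated genes higher on every knockdown array, and knockdown 3 stood far above the others. Epsti1, an interferon-induced gene of epithelial and stromal cells, read -6.82, -6.37 and -6.19 in controls 1, 2 and 3, -5.76 and -5.93 in knockdown 1 and 2, and -3.56 in knockdown 3 (log2 signal relative to the 75th percentile), and its limma adjusted p was 0.418. Tlr3, the endosomal receptor for double-stranded RNA, read -2.15 in knockdown 2 and -3.03 to -2.81 on the other 5 arrays. Gbp5, a GTPase induced by interferon gamma, was higher on each knockdown array (-5.17, -5.63 and -5.45) than on each control (-5.76, -6.35 and -5.69), with a difference of 0.51 (SE 0.21; limma adjusted p = 0.358), opposite in sign to Irf1 and Tap1. These genes were chosen after their values were seen.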
